A study of Mus musculus with 3 samples.

Results

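Cells overexpressing wild-type YAP were compared with control NIH3T3 cells by subtracting, for each gene, the log2 level on the control array from that on the YAP array. All genes that at least 1 probe set names alone were taken, which gave 18193 genes from 34945 of the 45037 probe sets, on 2 of the 3 arrays of the study. NIH3T3 is an immortalized fibroblast line from NIH/Swiss mouse embryos that lacks the Ink4a and Ink4b genes, and the study asked what forced YAP does to its growth and transformation. The genotype of the control cells was untransduced. The YAP cells had been infected with a retrovirus carrying the coding sequence of wildtype Yap of the mouse with a Flag tag and selected with puromycin, and the cells on the third array, mtYAP, had been made in the same way with Yap S112A, in which the serine that LATS kinases phosphorylate is replaced by alanine. All cells were grown in medium with calf serum. An empty-vector virus is also described in the study's methods, which do not say whether its cells or uninfected ones were arrayed, and the description of the control sample names an unrelated embryonic stem cell experiment. Infection, puromycin selection and YAP therefore cannot be told apart in these differences. The study presents the arrays in connection with growth at confluence, but the methods and labels state no density at harvest. There was 1 array for each condition and no replicate, so no difference has an error or a test.

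YAP is a transcriptional coactivator that does not bind DNA itself and acts mainly through the TEAD factors. In dense cultures, the MST and LATS kinases of the Hippo pathway phosphorylate YAP, which holds it in the cytosol and marks it for degradation. In fibroblasts, nuclear YAP is known to induce genes of the cytoskeleton, matrix and cell division, of which Ccn1, Ccn2 and Ankrd1 are used most often as readouts.

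Yap1 itself stood at 8.57 on the control array and 8.06 on the YAP array, a log2 difference of -0.51, and its probe sets gave -0.69 and -0.33. Whether these probes match the coding sequence, the only part of the gene that the virus carried, is unknown here, and Yap1 does not check the label. The fibroblast identity was checked with marker genes. Of 10 fibroblast markers, 9 reached a level of 6 on either array and the exception was Fap at 3.25 and 3.15. None of the measured markers of epithelial (9), haematopoietic (6), endothelial (5), embryonic stem (8) or skeletal muscle (6) cells reached that level, and of 4 adipocyte markers only Lpl, the lipoprotein lipase, did. Below that level, 1 of the 8 embryonic stem and 1 of the 4 adipocyte markers had a difference above 1, and none lay below -1. The median level was 4.60 on the control array and 4.56 on the YAP array. Among housekeeping genes, Actb, the cytoplasmic actin, differed by -0.26, whereas Hprt, a purine salvage enzyme, stood at 0.84 and Gusb, a lysosomal enzyme, at -0.84, so that housekeeping genes alone differed by this much.

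In cells overexpressing YAP, 247 genes (1.36% of those measured) lay above a log2 difference of 1, which is 2-fold, and 229 (1.26%) below -1. A lower limit of 0.65, which is 1.57-fold, was passed by 681 genes (3.74%) upward and 565 (3.11%) downward. Most genes stood close to control, and 87.9% differed by no more than 0.5 in either direction, with a median of -0.0033. The share past the limits went up with the level. Of 6492 genes below a level of 4 on both arrays, 5 lay above 1 and 6 below -1, and of 516 genes reaching 10 or more on either array, 22 (4.26%) and 16 (3.10%) did. Among the 6889 genes that reached a level of 6 on either array, which were taken as clearly measured, 175 (2.54%) lay above 1 and 164 (2.38%) below -1, with a median of 0.02. The genes named in the comparisons below reached that level on at least 1 of these arrays, whereas counts and medians of gene lists cover all measured members. List counts past a limit are to be read against the 1.36% and 1.26% of all genes. In many lists most members were clearly measured, and for those lists the 2.54% and 2.38% are the closer background. List counts above or below 0 are to be read against the median of all genes, -0.0033. Of these 175 and 164 genes, 70 and 82 lay below 6 on the other array, where values approach the background and the size of a difference is uncertain. Several probe sets read 89 of the 175 higher genes and 73 of the 164 lower ones, and they all gave the same sign for 88 and 71. Just inside the upper limit was Plk4, the kinase of centriole duplication, at 1.0033, and just outside it Mcm2, a subunit of the replicative helicase, at 0.995. At the lower limit, Atg12, a conjugation protein of autophagy, lay just inside at -1.0033 and Mettl7a1, a methyltransferase family member, just outside at -0.9967.

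**Figure D1:**
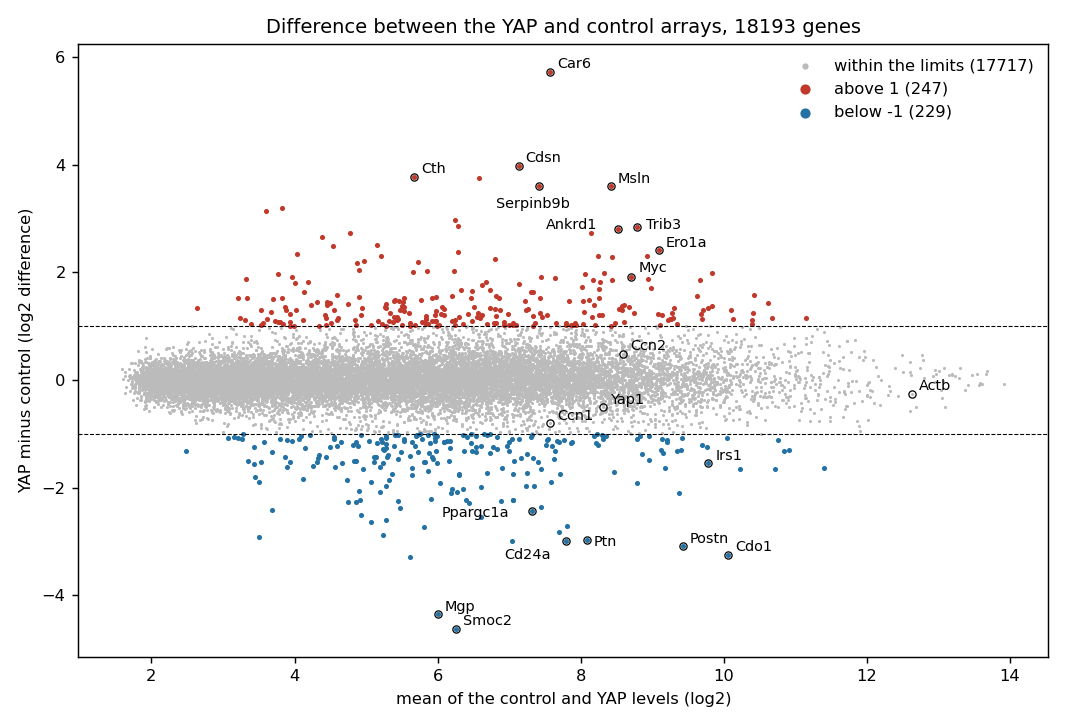
The vertical axis gives the log2 difference between YAP and control and the horizontal axis the mean of both log2 levels, with 1 point for each of 18193 genes, with dashed lines at 1 and -1. Red points are the 247 genes above 1 and blue points the 229 below -1, ringed points carry their names, and Ccn1, Ccn2, Yap1 and Actb lie between the lines.

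Among clearly measured genes, 25 stood at a difference of 2 or more, and several of them are described here. Car6, Cdsn, Cth, Paqr3, Serpinb9b and Msln stood at 3.60 to 5.73, each read by 1 probe set. All of them but Msln lay below 6 in control, at 3.78 to 5.61, so the sizes of their differences are uncertain. Trib3, a pseudokinase induced when amino acids run short, stood at 7.36 in control and 10.21 in YAP, a difference of 2.85. Angptl6, a secreted angiopoietin-like protein, had levels of 6.77 and 9.51 and a difference of 2.74. Ero1a, an oxidase that drives disulphide bond formation in the endoplasmic reticulum (ER), had levels of 7.88 and 10.30. Its 3 probe sets differed from control by 2.21 to 2.58, so that the reading did not rest on a single one. Ppp1r15a, a phosphatase subunit that reverses the block of translation by eIF2 phosphorylation, and Gadd45a, a stress gene of growth arrest, both stood at 2.30, from levels of 7.09 and 7.78 in control. Steap1, a membrane protein of a metalloreductase family, had levels of 7.29 and 9.58. Sema3c, a secreted semaphorin, stood at 2.38, P2rx3, an ATP-gated ion channel, at 2.25 and Abcc4, an exporter of cyclic nucleotides and prostaglandins, at 2.03, but these 3 lay below 6 in control. The probe sets of P2rx3 gave 1.37 to 3.86 and those of Adam22, a receptor for the secreted LGI proteins, 1.5 and 3.51, so the size of both is uncertain.

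Downward, 33 clearly measured genes stood at a difference of -2 or less, and several of those with the largest differences are described here. Smoc2, Mgp, Sparcl1, Cdo1 and Postn stood at -4.63 to -3.09. Of these, Smoc2, Mgp and Sparcl1 lay below 6 in YAP, at 3.82 to 3.96, so the sizes of their differences are uncertain. Ptn, the growth factor pleiotrophin, had levels of 9.58 in control and 6.59 in YAP, a difference of -2.98. Its 3 probe sets all lay below control, at -3.98 to -1.98. Cd24a, a small glycoprotein anchored to the cell surface, had levels of 9.29 and 6.29 and a difference of -2.99. Dkk3, a Dickkopf family protein that cells secrete, had levels of 9.10 and 6.28, and Rasl11b, a small GTPase of the Ras family, 9.16 and 6.45. Ppargc1a, the coactivator PGC-1α that drives mitochondrial biogenesis, had levels of 8.54 and 6.10, a difference of -2.44 (5.43-fold lower). All of its 5 probe sets lay between -2.64 and -2.04. Ptprm, a receptor phosphatase that joins cells by homophilic contacts, stood at -2.73, Itga8, an integrin subunit, at -2.60, Dpt, the matrix protein dermatopontin, at -2.54 and Cacna1c, the pore subunit of a calcium channel, at -2.24, and these 4 lay below 6 in YAP.

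Well-known targets of YAP and TEAD did not stand higher as a group. Of 27 measured members, 2 lay above 1 and none below -1, with a median of 0.07, and of 0.26 over the 16 that were clearly measured. Ankrd1, a nuclear ankyrin repeat protein, had levels of 7.12 in control and 9.92 in YAP, a difference of 2.80 (6.96-fold) that both of its probe sets gave, at 2.67 and 2.93. The other member above 1 was Gadd45a. Ccn2, the secreted growth factor CTGF, had levels of 8.34 and 8.83, a difference of 0.49. Ccn1, the related CYR61, was on the other side of control, with levels of 7.98 and 7.17 and a difference of -0.81, and its 4 probe sets gave -1.20 to -0.52. F3, the tissue factor that starts coagulation, stood at -0.84 and Ccdc80, a matrix protein, at -0.81. Birc5, which encodes survivin, a mitotic and anti-apoptotic protein, stood at 0.69, Amotl2, an angiomotin that binds YAP, at 0.57 and Ajuba, an inhibitor of the LATS kinases, at 0.53. In the Hippo pathway and its TEAD factors, 1 of 28 measured members passed a limit, downward, against 1.26% of all genes. This was Fat4, a giant cadherin upstream of the pathway, with levels of 7.02 and 5.71 and a difference of -1.31. Vgll3, a cofactor of TEAD, stood at -0.65 and Vgll4, a competitor of YAP for TEAD, at -0.47.

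The promoters of Ankrd1 and of the contractile gene Acta2 are shown because both hold the TEAD motif GGAATG and the genes lay on opposite sides of control. Sequences are those of RefSeq on GRCm38.p6, read 5′ to 3′ on the strand of the gene and upstream of a start site, and capitals mark the motif. The windows lie at chr19:36119949-36120068 (Ankrd1, minus strand) and chr19:34255457-34255576 (Acta2, minus strand).
Ankrd1: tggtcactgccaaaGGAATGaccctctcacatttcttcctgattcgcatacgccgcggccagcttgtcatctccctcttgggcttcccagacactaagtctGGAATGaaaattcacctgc
Acta2: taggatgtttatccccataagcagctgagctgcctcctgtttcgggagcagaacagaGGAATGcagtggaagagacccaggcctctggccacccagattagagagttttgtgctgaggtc
Motifs were searched on both strands from 250 bases before to 50 bases after each start site, in 14368 genes, and a gene with several start sites counted once if any of them held the motif. The TEAD motif was found in 18.3% of the 191 genes above 1 that have a promoter sequence and in 18.3% of the 164 below -1, against 15.3% of all genes and 14.7% of all 32851 promoters. It was found in 8 of 18 YAP and TEAD targets (44.4%) and in 8 of 15 contractile genes (53.3%).

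Genes that act when amino acids are short stood higher. Of 23 regulators and effectors of the ATF4 stress response, 9 lay above 1 and none below -1, with a median of 0.74 against -0.0033 over all genes. Besides Trib3, Ero1a and Ppp1r15a, Chac1, an enzyme that degrades glutathione, had levels of 7.50 in control and 9.36 in YAP, a difference of 1.86. Atf3, a transcription factor of the same response, had levels of 5.66 and 7.31. Fgf21, a hormone that ATF4 induces, had levels of 3.87 and 6.08. The enzymes of serine synthesis and one-carbon metabolism gave the same picture, with 6 of 14 above 1 and none below -1, and a median of 0.81. Psph, the last enzyme of serine synthesis, had levels of 7.08 and 9.05 and a difference of 1.97. Its partners in the pathway, Psat1 and Phgdh, stood at 1.15 and 0.99. On the mitochondrial folate side, Mthfd1l stood at 1.71, Mthfd2 at 1.51, Aldh1l2 at 1.38 and Shmt2, which turns serine into glycine, at 1.20. Other folate enzymes stood closer to control, with the mitochondrial Mthfd2l at 0.16 and the cytosolic Mthfd1 at 0.45.

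Of 13 enzymes of asparagine, proline and transamination, 3 lay above 1. Asns, asparagine synthetase, had levels of 9.63 and 11.21, a difference of 1.57 (2.98-fold). Bcat1, which transaminates branched-chain amino acids, stood at 1.53 and Gpt2, the mitochondrial alanine transaminase, at 1.22. The cytosolic aminoacyl-tRNA synthetases, which charge tRNAs, all lay above control. Of 19, 6 were above 1 and the median was 0.70, with Iars at 1.34, Wars at 1.23 and Lars at 1.22. Amino acid transporters were divided, with 5 of 21 above 1, 1 below -1 and a median of -0.29. Slc7a5, the light chain of the leucine carrier, had levels of 8.0 and 9.88 and a difference of 1.88, and Slc7a1, a carrier of arginine and lysine, stood at 1.18. Slc1a3, a glutamate carrier, was the member below -1, at -1.04. ER chaperones and folding enzymes stood nearer to control. None of 20 passed either limit, 13 lay below control and 7 above, and the median was -0.21. Calr, the chaperone calreticulin, stood at -0.77 and Sel1l, a subunit of the machinery that exports misfolded proteins from the ER, at 0.33.

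The upstream promoters of Asns, Chac1 and Atf3 are shown because they hold the half-site TGATGNAA of the composite element that ATF4 binds, in which N is any base. Capitals mark it, in Chac1 and Atf3 as its reverse complement. The windows lie at chr6:7693210-7693329 (Asns, minus strand), chr2:119350993-119351112 (Chac1, plus strand) and chr1:191183380-191183499 (Atf3, minus strand), and the motif begins 23, 193 and 110 bases before the start site.
Asns: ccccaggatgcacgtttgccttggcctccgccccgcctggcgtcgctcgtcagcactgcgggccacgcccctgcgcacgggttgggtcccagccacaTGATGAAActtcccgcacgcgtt
Chac1: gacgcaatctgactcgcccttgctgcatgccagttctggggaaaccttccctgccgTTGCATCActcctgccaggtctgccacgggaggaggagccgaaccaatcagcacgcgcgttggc
Atf3: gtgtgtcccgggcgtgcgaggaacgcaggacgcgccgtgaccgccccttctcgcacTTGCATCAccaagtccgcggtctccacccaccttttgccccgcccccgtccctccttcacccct
The half-site was found in 18 of 191 genes above 1 (9.42%) and 4 of 164 below -1 (2.44%), against 3.24% of all genes and 3.97% of all promoters. By list, it was found in 7 of 22 ATF4 response genes (31.8%) and 5 of 12 synthetases (41.7%), and in none of 13 serine and one-carbon enzymes.

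Mitotic genes lay above control. All 61 measured genes of the kinetochore, spindle and cytokinesis had a difference above 0, 15 of them above 1 and 32 above 0.65, and the median was 0.68. Kif20a, a kinesin of the central spindle, had levels of 5.49 in control and 7.17 in YAP, a difference of 1.68. Ube2c, the ubiquitin-conjugating enzyme of the anaphase-promoting complex, had levels of 7.99 and 9.35. Prc1, which bundles microtubules at the spindle midzone, had levels of 6.60 and 7.92, and Ect2, the exchange factor that sets the cleavage furrow, 6.14 and 7.46. Genes of DNA replication stood nearer to control. Of 44, 40 lay above 0 but only Dut, which removes dUTP, at 1.53 and Rfc4, a clamp loader subunit, at 1.04 passed the limit, and the median was 0.35. Gmnn, the licensing inhibitor geminin, stood at 0.98 and Pold2, a subunit of DNA polymerase delta, at 0.93. Among 33 cyclins, cyclin-dependent kinase (CDK) inhibitors and E2F factors, Ccnb2, cyclin B2, stood at 1.13 and Ccnd2, cyclin D2, at 0.56. The inhibitors of CDKs went different ways, with Cdkn1a, p21, at 1.02 from a control level of 8.59 and Cdkn2c, p18, at -1.12 from 11.32.

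The promoters of Prc1 and Ube2c are shown for a pair of motifs of cell cycle promoters, the CCAAT box and the cell cycle genes homology region (CHR), TTTGAA. Capitals mark both on either strand, and the windows lie at chr7:80294356-80294475 (Prc1, plus strand) and chr2:164769809-164769928 (Ube2c, plus strand).
Prc1: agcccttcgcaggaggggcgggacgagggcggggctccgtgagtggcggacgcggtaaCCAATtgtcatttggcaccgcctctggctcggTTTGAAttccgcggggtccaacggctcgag
Ube2c: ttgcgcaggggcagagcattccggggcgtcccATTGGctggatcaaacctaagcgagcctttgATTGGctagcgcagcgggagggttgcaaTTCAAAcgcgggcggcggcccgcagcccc
The CHR was found in 36 of 51 mitotic genes (70.6%) and the CCAAT box in 37 (72.5%), against 15.7% and 42.0% of all genes and 17.9% and 37.4% of all promoters. Among genes of DNA replication the CHR was found in 5 of 36 (13.9%) and the CCAAT box in 23 (63.9%). The CHR was found in 22.5% of genes above 1 and 15.9% of genes below -1. For the CCAAT box these shares were 44.5% and 44.5%, and all 18 ER chaperones with a promoter sequence held it.

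Genes of ribosome biogenesis stood higher while those of ribosomal proteins differed little. All 40 measured genes of ribosome biogenesis and RNA polymerase I lay above control, 8 of them above 1, with a median of 0.60. Dkc1, a pseudouridine synthase, had levels of 7.49 and 8.89, Ddx21, a nucleolar helicase, 6.84 and 7.89 and Nob1, the nuclease that completes the small subunit, 7.69 and 8.72. The E-box CACGTG, which MYC and MAX bind, was found in 9 of 35 of these genes (25.7%), against 10.3% of all genes and 7.15% of all promoters. It was found in 13.1% of genes above 1, 10.4% of genes below -1 and 12.9% of clearly measured genes. Lysosomal genes, whose median lay below control, held it in 10 of 29 (34.5%). Of 48 listed ribosomal protein genes 31 were measured. None of these passed either limit, 25 lay above 0, and the median was 0.12. Translation initiation factors had a median of 0.23 over 26 genes and mitochondrial ribosomal proteins one of 0.22 over 38. Subunits of the respiratory chain and ATP synthase had a median of -0.06 over 41 genes, and no clearly measured one passed a limit, beside the difference of -2.44 of Ppargc1a. Myc had levels of 7.75 and 9.66. Mycn, its paralog, was read by 3 probe sets that disagreed. One went from 6.22 in control to 13.07 in YAP and stood at 12.51 in mtYAP, and the others differed from control by -0.06 and -0.20, so no single difference is given for the gene. The high values were on the arrays of infected cells, and whether this probe set reads Mycn mRNA or sequence that came with the virus was not tested.

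**Figure D2:**
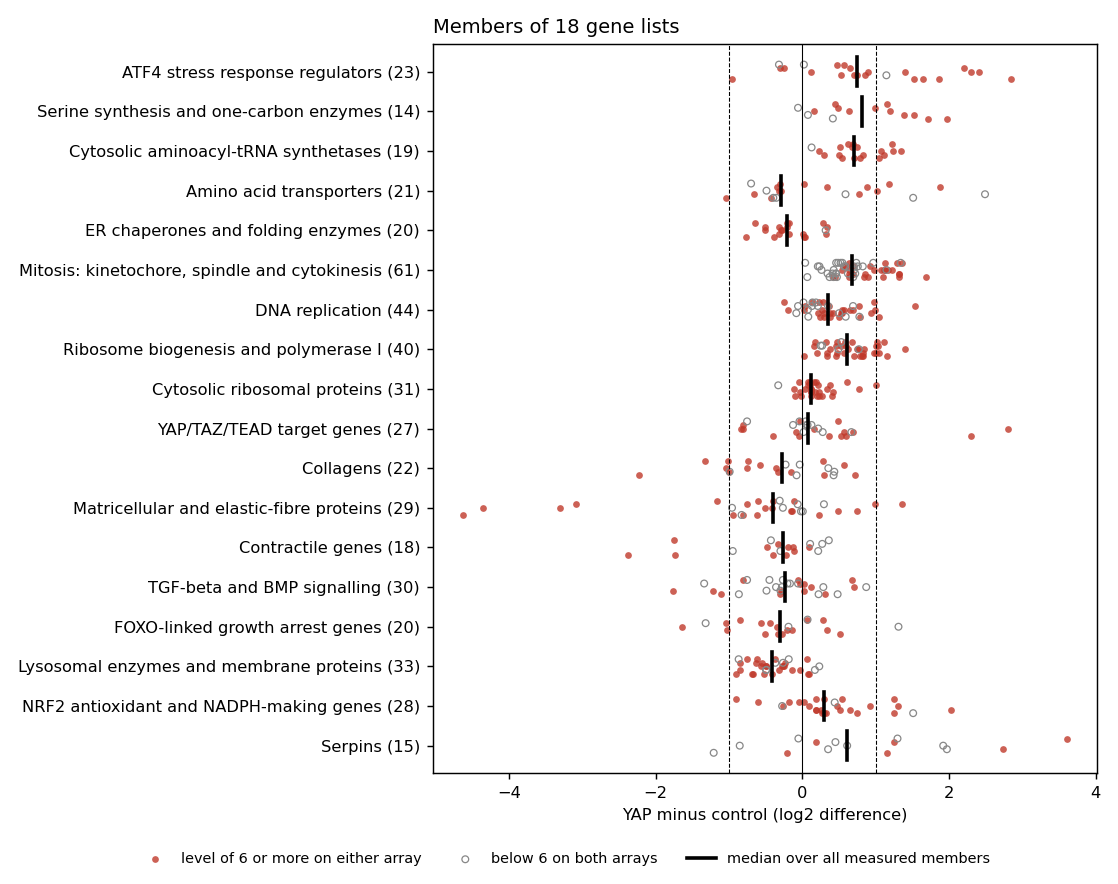
Log2 difference of YAP from control for each measured member of 18 gene lists, with the number of members beside each name. Red points reached a level of 6 on either array, open points did not, black bars are medians, dashed lines mark 1 and -1, and the points of mitosis, ribosome biogenesis and the synthetases all lie above 0.

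Genes of the extracellular matrix stood lower in part. Of 22 collagens none lay above 1 and 4 lay below -1, with a median of -0.28. Col6a3, a chain of the beaded filament collagen VI, had levels of 11.50 in control and 10.17 in YAP, a difference of -1.33. The chains of basement membrane collagen IV, Col4a1 and Col4a2, stood at -0.99 and -1.04. Col3a1, a fibrillar collagen, lay on the other side at 0.72, from 11.09 to 11.80. The small leucine-rich proteoglycans, which bind collagen fibrils, were also divided. Lum, lumican, had levels of 8.63 and 6.26 and a difference of -2.37, and Dcn, decorin, levels of 10.30 and 9.09 and a difference of -1.22. Ogn, osteoglycin, differed by 0.96 and Bgn, biglycan, by -0.27. Of 29 matricellular and elastic-fibre proteins, 5 lay below -1 and 1 above 1, and the median was -0.41. The member above 1 was Tnxb, a tenascin of collagen fibrils, with levels of 5.38 and 6.74.

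Receptors and enzymes of the matrix showed both directions. Itga6, the integrin subunit that binds laminin, had levels of 7.36 and 9.19, a difference of 1.82, whereas Lama4, a laminin chain, stood at -2.0 and Nid2, which links laminin to collagen IV, at -1.75 from 8.58 in control. Enzymes that modify collagen had a median of -0.30 over 18 genes, with 2 above 1. One of them was Plod2, the lysyl hydroxylase of collagen telopeptides, at 1.17, and the prolyl 4-hydroxylase subunits P4ha2 and P4ha1 stood at 0.83 and 0.69. The prolyl 3-hydroxylase components P3h3, Crtap and P3h1 lay at -0.90, -0.76 and -0.69. Of 22 metalloproteinases and their inhibitors, 1 lay above 1 and 3 below -1, against 1.36% and 1.26% of all genes. The 3 lower ones lay below 6 on both arrays. The membrane-bound collagenase Mmp14 stood at -0.88 and the gelatinase Mmp2 at -0.76, from 12.24 in control, and Mmp11, stromelysin 3, at 1.03.

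Contractile genes of myofibroblasts lay below control at 13 of 18, with 3 below -1 and a median of -0.27. Tagln, the actin-binding protein transgelin, had levels of 7.93 in control and 6.18 in YAP, a difference of -1.75. Myl9, a regulatory myosin light chain, stood at -2.38 and Acta2, smooth muscle actin, at -1.74. The probe sets of Acta2 ranged from -3.10 to -0.67, and the one with the highest level went from 11.27 to 8.17. Of 30 genes of TGF-β and BMP signalling, 4 lay below -1 and none above 1. Tgfbi, a matrix protein that TGF-β induces, had levels of 6.51 and 4.75, Tgfb3, a ligand, 8.09 and 6.98, and Id3, an inhibitor of helix-loop-helix factors, 7.22 and 6.0. Id1 went the other way, at 0.67. Among 27 mesenchymal transcription factors and cadherins, Runx1 stood at -1.31, with probe sets from -2.17 to -0.50, Prrx2 at -1.24 and Twist2, from 9.76 in control, at -1.12. These were all the members past a limit.

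Growth factors and their receptors differed in both directions. Igf2, a fetal growth factor, had levels of 7.29 and 8.77 and a difference of 1.48, while Irs1, the adaptor of the receptors for insulin and IGF, had levels of 10.56 and 9.01 and a difference of -1.55. Igf2r, which clears IGF2 from the surface, stood at -0.89 and Igf1r at -0.38. Pdgfc, a PDGF ligand, stood at 1.12, whereas the receptor Pdgfrb stood at -1.09, from 9.69 to 8.59, and Hgf, the ligand of MET, at -1.01. Nrg1, a ligand of the ErbB receptors, had levels of 5.21 and 6.75. Of the immediate early factors, Fos stood at -1.09 and Atf3 at 1.65, and the median of 17 was -0.05. The Krüppel-like factors stood higher in part, with 3 of 13 above 1. Klf4 had levels of 9.12 and 10.45, and Klf10, which TGF-β induces, 7.65 and 8.86. Of feedback regulators of ERK, Dusp4, a phosphatase, stood at 1.21, Dusp6 at -0.63 and Spry2 at -0.70.

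In sulphur metabolism the largest differences lay on opposite sides. Cth, which makes cysteine, had levels of 3.78 and 7.56, and Cdo1, which oxidizes cysteine, 11.68 and 8.43. Gclc, the catalytic subunit of the first enzyme of glutathione synthesis, stood at 1.25, and Ahcy, which hydrolyses S-adenosylhomocysteine, at 1.13 from 9.56 in control. Of 28 genes of the NRF2 response, 5 lay above 1 and none below -1, against 1.36% and 1.26% of all genes. Their median was 0.30. Abcc1, an exporter of glutathione conjugates, and Ephx1, an epoxide hydrolase, stood at 1.25 and 1.30, and Nqo1, a quinone reductase, at 0.92. Nfe2l2, which encodes NRF2, stood at 0.65. Retinoid and aldehyde enzymes were divided. Aldh1a1, which makes retinoic acid, had levels of 4.66 and 6.66, and Aox3, an aldehyde oxidase, 8.54 and 5.54. The list had 5 of 20 above 1 and 2 below -1.

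Glycolysis and the hypoxia response had a median of 0.47 over 33 genes, with 3 above 1 and none below -1. Ldha, the lactate dehydrogenase subunit of muscle, stood at 0.98, from 11.13 to 12.11, and Ldhb, the heart subunit, at -0.96, from 9.91 to 8.95. Lysosomal genes lay below control at 28 of 33, with a median of -0.41, and none passed the limit of 1. Psap, the precursor of the saposins, stood at -0.76 and Lamp1, a membrane protein, at -0.69, both from levels above 11 in control. Cholesterol and fatty acid synthesis gave a median of -0.19, with 22 of 27 genes below control and none past a limit. Odc1, the first enzyme of polyamine synthesis, stood at 1.32 and Smox, which oxidizes spermine, at -1.03.

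Genes of immunity and of growth arrest completed the picture. The chemokine Ccl2, which attracts monocytes, had levels of 9.75 and 7.83, while Ptgs2, the inducible cyclooxygenase, had levels of 6.70 and 8.6 and a difference of 1.90. The 3 probe sets of Cxcl12, the ligand of CXCR4, disagreed in sign, at -2.85 to 0.34, so no direction is given for it. Of 37 interferon-stimulated genes, 1 passed a limit, downward, against 1.26% of all genes, and the median was -0.22. C1s1, a protease of the classical complement pathway, stood at -1.31. Of 20 genes linked to FOXO factors and growth arrest, 4 lay below -1 and 1 above 1, against 1.26% and 1.36% of all genes. Their median was -0.31. Sesn3, a sestrin, had levels of 7.72 and 6.08, and Pdk4, which shuts pyruvate dehydrogenase, 8.87 and 7.83. Of 23 targets of p53, 4 lay above 1 and none below -1, against 1.36% and 1.26% of all genes. Those above 1 included Eda2r, a receptor of ectodysplasin, at 1.47 and Ddit4, an inhibitor of mTORC1, at 1.4. Of 15 members of the BCL2 family none passed a limit, and Bcl2l11, the death protein BIM, stood at -0.51.

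**Figure D3:**
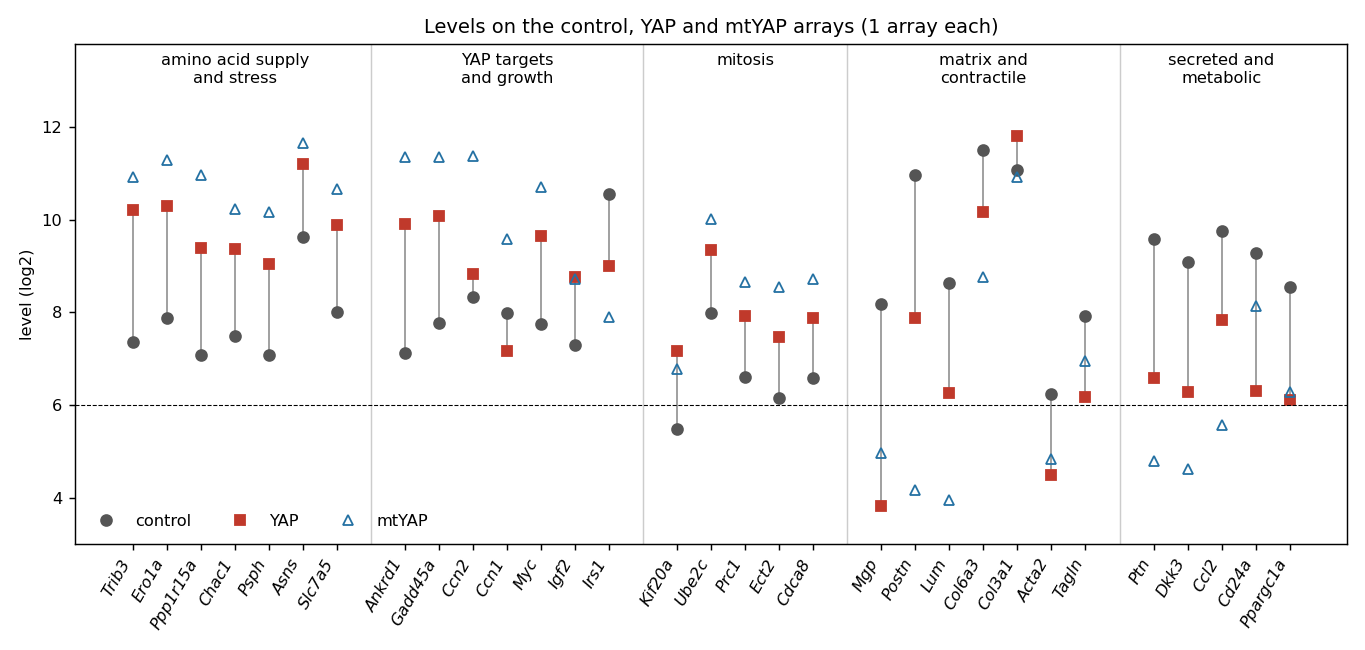
Log2 levels of 31 genes on the control (circles), YAP (squares) and mtYAP (triangles) arrays, 1 array each, with grey lines joining control and YAP and a dashed line at a level of 6. For Igf2, Kif20a, Mgp, Acta2, Tagln, Cd24a and Ppargc1a the mtYAP triangle lies between the circle and the square. For Ccn1 and Col3a1 the triangle and the square lie on opposite sides of the circle.

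The mtYAP array was set beside the YAP array for genes that stood further from control in YAP than in mtYAP. Such genes were the minority, 35 of the 175 clearly measured genes above 1 and 34 of the 164 below -1. Over all genes, 686 lay above 1 and 739 below -1 in mtYAP, against 247 and 229 in YAP. The same control array serves both comparisons, so the values are given side by side and nothing is read from their agreement. In the Serpinb family of protease inhibitors, Serpinb9, an inhibitor of granzyme B, had levels of 5.93 in control, 7.18 in YAP and 6.01 in mtYAP, and Serpinb6a 10.57, 11.72 and 10.83. Serpinb9b differed by 3.61 in YAP and 2.81 in mtYAP. Ctla2b and Ctla2a, inhibitors of cysteine proteases, stood at 1.98 and 1.24 in YAP and at 0.17 and 0.12 in mtYAP. Both families hold near-identical copies whose probes may read each other. Tnxb stood at 1.36 in YAP and -0.24 in mtYAP. Downward, Cd24a differed by -2.99 in YAP and -1.16 in mtYAP, and its probe sets gave -3.29 to -2.58 in YAP. Lpl had levels of 9.78 in control, 8.46 in YAP and 9.86 in mtYAP, and its probe sets gave -1.35 and -1.27 in YAP. Mgp, Col11a1, Tagln and Fat4 also stood further below control in YAP, at -4.36, -2.23, -1.75 and -1.31, than in mtYAP, at -3.22, -1.43, -0.98 and -0.55. Serine and one-carbon enzymes had a median of 0.81 in YAP and 1.27 in mtYAP, mitotic genes 0.68 and 1.20, and lysosomal genes -0.41 and -0.75. Serpins, with 0.61 and 0.26, NRF2 genes, with 0.30 and 0.08, and glycolysis, with 0.47 and 0.27, had the larger median in YAP. The serpin list was written with earlier results of these data known and leaves out part of the Serpinb family. All 18 measured Serpinb genes had a median of 0.24 in YAP.

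**Figure D4:**
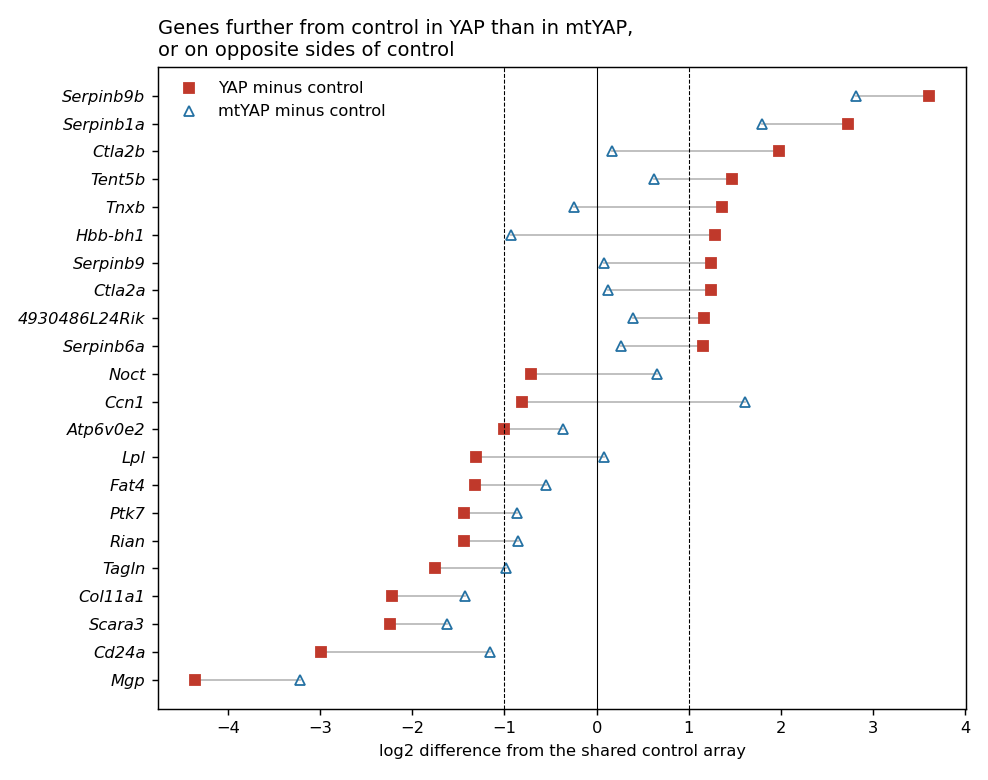
Log2 difference from the shared control array in YAP (squares) and mtYAP (triangles) for 22 genes, those that passed a limit in YAP and stood furthest beyond mtYAP in each direction, with the genes on opposite sides of control. Dashed lines mark 1 and -1, and for Ctla2a, Ctla2b, Serpinb9, Tnxb and Lpl the triangle lies near 0 while the square lies past a limit.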

How the data were processed

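Control, YAP and mtYAP RNA was measured on Affymetrix mouse genome arrays, 1 for each condition. The deposited log2 levels per probe set were made by the authors with background subtraction and normalization by robust multiarray analysis (RMA). RMA and affy are named in the submitters' processing notes, with no version in the sources used here. The values are rounded to 2 decimals, and RMA compresses differences of genes near the background. The number of arrays limits the precision.

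The array's annotation names 1 gene for 34945 of 45037 probe sets, which were averaged per gene, while 932 with several names and 9160 with none were left out. Of 18193 genes, 18032 were found in the RefSeq table of GRCm38.p6, which gave names, neighbours and promoters. No test was run. Genes were counted past a log2 difference of 1 and of 0.65, and 55 lists, 7 of them of cell type markers, were described by counts and medians. Members, lists and limits were chosen with earlier results of these data known, and the lists overlap. Named genes are the 25 with the largest difference in each direction at a level of 6 or more with probe sets of one sign, up to 6 of each list, Yap1, Myc, Ccn2, Ccnd2, Ankrd1 and Actb, the 10 furthest beyond mtYAP in each direction, genes on opposite sides of control, and those next to the limit. Phgdh, Mthfd1, Mthfd2l, Igf1r and Nfe2l2 were named after their values were seen, as were the gene families and neighbours of the closing section. The counting code was checked on simulated data with planted differences past the limit and little noise. That check does not measure how reliable the counts of the real data are. Python 3.11.15 with numpy 2.4.6, pandas 2.3.3, statsmodels 0.14.6 and matplotlib 3.10.9 was used.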

Additional observations from a re-analysis of the deposited data

Results flagged for a closer look

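Clearly measured genes at least 0.65 from control on opposite sides in YAP and mtYAP numbered 3, and the difference between the lines was not tested, since each has 1 array. Ccn1 stood at -0.81 in YAP and 1.61 in mtYAP, so that YAP lay -2.42 from mtYAP on the log2 scale. Hbb-bh1, an embryonic globin, stood at 1.29 in YAP and -0.93 in mtYAP, with YAP 2.21 above mtYAP, and it reached a level of 6 only in YAP, at 6.17. Noct, nocturnin, a circadian protein, stood at -0.71 in YAP and 0.66 in mtYAP, with YAP at -1.37 from mtYAP.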

How the results depend on the processing

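The counts depended on how probe sets were joined and where the limit was set. Against 247 genes above 1 and 229 below -1, there were 436 and 375 when any probe set could pass, 681 and 565 with a limit of 0.65 and 85 and 67 at a level of 8 or more. With a level of 6 on both arrays, a setting chosen after seeing the data, there were 105 and 82. The other settings gave 175 to 326 and 164 to 296. The median of the aldehyde and retinoid list was 0.12 and turned to -0.03 without probe sets of the _s, _x and _a kinds and to -0.03 at a level of 6, and the other list medians that changed sign lay within 0.1 of 0, of which that of complement components moved furthest, from 0.07 to -0.90 at a level of 6. Of 155 named genes past the limit, 13 came under it in some setting, Plk4, Pdgfrb, Eprs, Nars and Smox among them. Removing the median difference or a loess curve moved genes by at most 0.0325. No paired analysis was possible because each condition has 1 array, and for the same reason no replicate could be left out.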

Other observations

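Genes that lie next to each other on a chromosome and stood on the same side of control were looked for after the values had been seen. Among the 18032 genes placed on GRCm38.p6, 7 runs of at least 3 measured neighbours lay above 0.65, with 23 genes in all, and 7 runs lay below -0.65, also with 23 genes. The longest held Serpinb1a, Serpinb6b, Serpinb9, Serpinb9b and Serpinb1b on chromosome 13, at 2.73, 1.97, 1.25, 3.61 and 1.92. Serpinb6b and Serpinb1b lay below 6 on both arrays, and Serpinb1a, Serpinb9 and Serpinb9b below 6 in control, so these sizes are uncertain. Of 18 measured Serpinb genes 7 lay above 1, none below -1 and 7 below 0, with a median of 0.24. A run on chromosome 1 held Brinp3 at 2.05, with levels below 6 on both arrays. Its other members were Pla2g4a, the phospholipase that releases arachidonic acid, at 1.14 and Ptgs2, the cyclooxygenase that uses it, at 1.90.

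Downward, the maternally expressed noncoding genes Meg3, Rian and Mirg of the imprinted Dlk1 locus on chromosome 12 stood at -1.22, -1.44 and -1.27, and all 11 probe sets of Meg3 lay below control, at -1.74 to -0.45. Dlk1, the paternally expressed gene of the locus, stood at -0.51. In mtYAP the same 4 genes stood at -0.86, -0.86, -0.93 and -0.07. The clustered protocadherins Pcdhb, adhesion proteins on chromosome 18, were lower in part. Of 22 measured, 7 lay below -1, 5 above 0 and none above 1, with a median of -0.73, and Pcdhgc4 of the neighbouring cluster stood at -1.21. Members of both families are similar in sequence, and how far their probes read each other was not tested.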
